A study of Mus musculus with 5 samples.

Results

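The 84 mouse genes for the proteins of the cytosolic ribosome were examined for ATRX peaks at their ends. They were chosen by symbol among 21887 protein-coding genes of the RefSeq table of GRCm38.p6: genes of the Rpl and Rps series with the 3 Rplp genes and Rpsa, without the S6 kinases and without pseudogenes. Of the 84, 52 encode large subunit proteins and 32 small subunit proteins, and 7 of them are duplicate copies with symbols ending in l or l1. A gene was counted as occupied in a library when the summit of a peak lay within 1 kb of either gene end. Binding of ATRX was mapped by ChIP-seq, the sequencing of immunoprecipitated chromatin, in primary neurons from C57BL6/J embryos at E15.5-17.5, which all received lentivirus on day 5 in vitro (DIV5). Control neurons expressed the fluorescent protein mCherry and were collected on DIV14. TBC1D3, a gene of hominoid primates, and MICAL1-M1, a form of the actin-oxidising enzyme MICAL1 that the labels do not describe further, were each given to neurons taken on DIV14, and a second mCherry culture was taken on DIV7. There was 1 library per group and no test between conditions, the promoter of the lentivirus and the number of embryos behind a culture are not stated in the labels, and peaks of a chromatin protein do not check the cell type by its markers.

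Ribosomal proteins are made in near equal amounts and assembled with ribosomal RNA in the nucleolus into the large and the small subunit. Their genes are short and very active, their transcripts start with a run of pyrimidines, the terminal oligopyrimidine (TOP) tract, through which mTOR signalling controls translation, and many carry small nucleolar RNAs (snoRNAs) in their introns. ATRX remodels chromatin together with DAXX, a histone chaperone, and is best known at telomeres, pericentromeric repeats and other heterochromatin. In neurons, local protein synthesis at synapses depends on ribosomes carried into dendrites and axons.

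The sequences the peaks cover are shown first for 4 members, printed 5′ to 3′ as RefSeq promoters of GRCm38.p6, 250 bases before to 50 after the start, with the run of C and T at the start in capitals. Rpl15 at chr14:18270937-18271236 (minus strand) and Rps13 at chr7:116334141-116334440 (minus strand) had the highest control fold, and Rps6 at chr4:86857318-86857617 (minus strand) and Rpl12 at chr2:32961462-32961761 (plus strand) had the only member peaks of MICAL1-M1 with a q of at most 0.05, and a summit in each of the 4 libraries. In the control a single peak contained the whole printed stretch of each of the 4. The control summits themselves lay outside these stretches. They were 280 and 274 bp upstream of the start in Rpl15 and Rps13, and 180 and 260 bp downstream in Rps6 and Rpl12. In MICAL1-M1 a peak contained the whole stretch of Rpl15, Rps13 and Rps6 but not that of Rpl12.
Rpl15: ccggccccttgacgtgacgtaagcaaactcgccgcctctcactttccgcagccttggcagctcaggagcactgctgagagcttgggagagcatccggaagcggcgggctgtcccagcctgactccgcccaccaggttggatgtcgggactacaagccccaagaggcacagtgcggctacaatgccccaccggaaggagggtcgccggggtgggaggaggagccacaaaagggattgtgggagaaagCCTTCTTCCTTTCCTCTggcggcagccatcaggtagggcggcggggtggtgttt
Rps13: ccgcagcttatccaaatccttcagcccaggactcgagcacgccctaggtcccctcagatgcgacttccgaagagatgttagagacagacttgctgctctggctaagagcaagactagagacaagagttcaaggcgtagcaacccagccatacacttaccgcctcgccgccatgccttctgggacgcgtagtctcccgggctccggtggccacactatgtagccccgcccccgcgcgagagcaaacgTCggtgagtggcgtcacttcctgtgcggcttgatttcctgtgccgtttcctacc
Rps6: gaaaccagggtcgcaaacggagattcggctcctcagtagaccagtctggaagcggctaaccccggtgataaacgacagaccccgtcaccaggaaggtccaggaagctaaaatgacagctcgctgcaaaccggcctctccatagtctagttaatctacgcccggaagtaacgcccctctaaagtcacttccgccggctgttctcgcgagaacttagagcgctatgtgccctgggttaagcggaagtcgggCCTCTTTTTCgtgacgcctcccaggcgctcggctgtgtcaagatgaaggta
Rpl12: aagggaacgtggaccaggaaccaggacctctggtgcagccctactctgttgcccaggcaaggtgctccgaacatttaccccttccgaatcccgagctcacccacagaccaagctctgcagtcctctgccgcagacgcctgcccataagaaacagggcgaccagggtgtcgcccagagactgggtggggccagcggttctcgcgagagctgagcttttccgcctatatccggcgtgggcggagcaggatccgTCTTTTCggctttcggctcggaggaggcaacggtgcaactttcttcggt

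A further 6 promoters are given as 60 bases around the start, to show the pyrimidine run, again in capitals, in members with and without ATRX peaks. Rpl27a at chr7:109519165-109519224 (plus strand) and Rpl35 at chr2:39005102-39005161 (minus strand) have the longest runs shown, of 20 and 18 bases. Rpl13a at chr7:45128716-45128775 (minus strand) and Rps18 at chr17:33955636-33955695 (minus strand) were occupied in the control and in MICAL1-M1. Rpl28 at chr7:4792935-4792994 (plus strand) and Rps26 at chr10:128626477-128626536 (minus strand) had no summit in any library, and their runs are 11 and 9 bases long. Other members without a summit had runs from 1 base (Rpl10) to 10 bases (Rpl32l). The runs of these 6 promoters all exceed the median, which was 4 bases in members with a promoter entry and 3 in all genes with one.
Rpl27a: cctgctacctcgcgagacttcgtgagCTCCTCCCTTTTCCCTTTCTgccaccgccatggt
Rpl35: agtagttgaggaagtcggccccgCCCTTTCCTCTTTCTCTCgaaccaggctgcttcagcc
Rpl13a: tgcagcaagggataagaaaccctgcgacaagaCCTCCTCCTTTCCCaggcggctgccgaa
Rps18: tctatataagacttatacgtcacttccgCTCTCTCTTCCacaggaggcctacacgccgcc
Rpl28: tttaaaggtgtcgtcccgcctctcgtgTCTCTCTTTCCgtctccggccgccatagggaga
Rps26: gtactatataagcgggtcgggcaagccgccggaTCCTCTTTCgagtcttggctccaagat

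A promoter entry that begins at the gene start was at hand for 54 members and for 10583 protein-coding genes in all. A run of at least 8 pyrimidines reaching within 3 bases of the start was present in 16 of the 54 (29.6%) against 7.63% of all promoters. The ETS letters CCGGAAG or CTTCCGG were in 37.0% against 10.3%, the SP1 letters GGGCGG or CCGCCC in 61.1% against 40.5%, the YY1 core AAGATGGC or GCCATCTT in 11.1% against 3.08%, and the TATA letters TATAAA or TTTATA in 13% against 16.9%, each searched on both strands. Each motif was counted apart from the others, so that overlapping letters count for both. The median number of CG dinucleotides was 21 in the members' promoters and 9 in all promoters. In the control, members with a summit had a median of 22 CG dinucleotides (n = 37) and members without one 18 (n = 17), and a run of at least 8 was present in 11 of 37 and 5 of 17. The medians were also 22 and 18 in MICAL1-M1 (n = 28 and 26), 23 and 18 at DIV7 (n = 18 and 36), and 21 and 20 in TBC1D3 (n = 24 and 30). Of the 14 members with a q of at most 0.05 in any library, 8 had an entry, and 3 of these had such a run.

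The 4 lists differ in length and depth: the control list holds 96670 peaks, that of TBC1D3 199059, that of MICAL1-M1 141387 and that of DIV7 213982, and the largest uncorrected p in each is close to 0.05. The fragments at each summit and the local background were recovered from the deposited fold and p, which gave a usual background of 3.56, 1.22, 2.61 and 1.28 fragments in that order. The share of peaks on the X chromosome was 0.418%, 1.79%, 0.924% and 2.77%, and the share with a q of at most 0.05 was 4.19%, 0.205%, 0.463% and 0.236%. The depth therefore moved with the groups, its part in the counts below was not tested beyond lists cut to equal size, and a fold in a shallow list is not comparable with one in a deep list. Intervals are exact binomial (Clopper-Pearson, 95%) and cover counting error over genes only.

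In the control, 56 of the 84 members were occupied (66.7%, interval 55.5 to 76.6), where 42.3% of all protein-coding genes were. TBC1D3 had 35 (41.7%, 31.0 to 52.9) against 33.4% of all genes, MICAL1-M1 had 47 (56.0%, 44.7 to 66.8) against 38.7%, and mCherry at DIV7 had 26 (31.0%, 21.3 to 42.0) against 33.2%. The members' share thus lay above the background in the control and in MICAL1-M1, and the background lay inside the members' interval in TBC1D3 and at DIV7. The members are short, with a median length of 3179 bp against 17169 bp for all protein-coding genes; among the other 8824 protein-coding genes under 12 kb the occupied shares were 29.2%, 27.8%, 27.2% and 28.6%. This short-gene share lay below the members' interval in the control, TBC1D3 and MICAL1-M1 and inside it at DIV7. Limited to as many peaks as the shortest list holds, the counts were 56, 20, 41 and 13 against backgrounds of 42.3%, 19.2%, 33.4% and 17.6%. A window of 0.5 kb gave 44, 22, 36 and 14 members (52.4%, 26.2%, 42.9% and 16.7%) against 31.9%, 20.4%, 26.8% and 20.6% of all genes. A window of 3 kb gave 66, 47, 57 and 44 (78.6%, 56.0%, 67.9% and 52.4%) against 53.0%, 57.7%, 53.2% and 59.3%. Any base of a peak within 1 kb gave 58, 38, 50 and 29 members (69.0%, 45.2%, 59.5% and 34.5%) against 45.7%, 36.9%, 42.3% and 37.0%. With the start alone, taken as the upstream gene border of the 64 members of known direction, the counts were 36, 21, 30 and 14. These were 56.2%, 32.8%, 46.9% and 21.9% of the 64, against 39.7%, 24.3%, 34.6% and 24.2% of all genes of known direction.

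**Figure D1:**
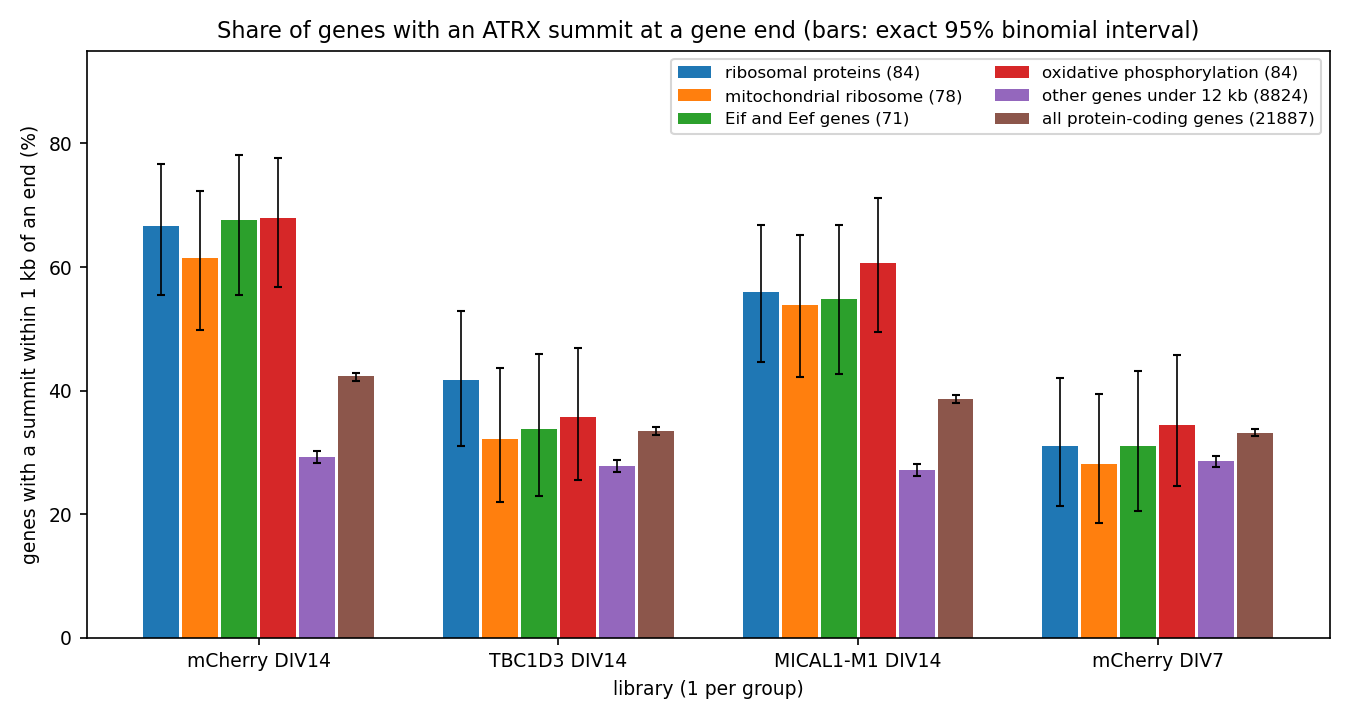
Share of genes with an ATRX summit within 1 kb of a gene end (vertical axis, percent) in each library (1 per group) for the ribosomal protein genes, 3 similar lists and 2 backgrounds; error lines are exact 95% binomial intervals. The ribosomal protein genes stand at 66.7% in the control against 42.3% of all genes, and at 31.0% against 33.2% at DIV7.

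Strong peaks at the members were few and lay mostly in the control, as they did over all genes. A q of at most 0.05 was reached by 12 members in the control (14.3%, interval 7.61 to 23.6; all genes 8.47%), by 0 in TBC1D3 (background 0.146%), by 2 in MICAL1-M1 (1.33%) and by 0 at DIV7 (0.228%). The control background of all genes lay inside the members' interval, and the share of other genes under 12 kb (5.39%) lay below it. With 84 members, a count of 0 has an upper bound of 4.30%. At a p of at most 0.001 the counts were 36, 2, 19 and 3 (42.9%, 2.38%, 22.6% and 3.57%), where the backgrounds were 26.0%, 5.22%, 15.8% and 5.85%.

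The 2 strongest control peaks were those of Rpl15, a large subunit protein, and Rps13, a small subunit protein. Rpl15 had 18 fragments over a background of 3.56 in the control, 5 over 1.22 in TBC1D3, 10 over 2.61 in MICAL1-M1 and no summit at DIV7. Those values correspond to folds of 4.16, 2.71 and 3.05, with q of 0.00068 in the control and above 0.05 in the others. Its control peak covers chr14:18270403-18271779 with the summit 280 bp upstream of the start, while the summits in MICAL1-M1 and TBC1D3 lay 211 and 218 bp downstream. Rps13 had 18 fragments over 3.56 in the control (4.16-fold, q 0.00068), 8 over 3.40 in MICAL1-M1 (2.04-fold) and no summit in the other libraries. Its control peak covers chr7:116333585-116335071, with the summit 274 bp upstream of the start.

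Large subunit members with a q of at most 0.05 in the control also included Rpl7a, Rpl21, Rpl23a, Rpl13a, Rpl13 and Rpl9. Rpl7a reached 3.72-fold with 16 fragments and Rpl21 3.53-fold with 16. Rpl23a, which sits at the exit of the nascent peptide tunnel, had 3.51-fold with 15 fragments, Rpl13a 3.29-fold with 14, Rpl13 3.20-fold with 14 and Rpl9 3.05-fold with 16. Among small subunit members, Rps3, which also has a role in DNA repair, had 3.51-fold with 15 fragments, Rps27a, made as a fusion with ubiquitin, 3.48-fold with 18 over 4.46, and Rps9 3.31-fold with 15. Just outside the q threshold was Rpl35a in the control (3.08-fold, q 0.054). Of all 12 such members, chosen by their control values, 4 (33.3%) had a summit in TBC1D3, 7 (58.3%) in MICAL1-M1 and 2 (16.7%) at DIV7. Over all 1853 genes with such a control peak these shares were 47.4%, 74.6% and 46.6%.

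**Figure D2:**
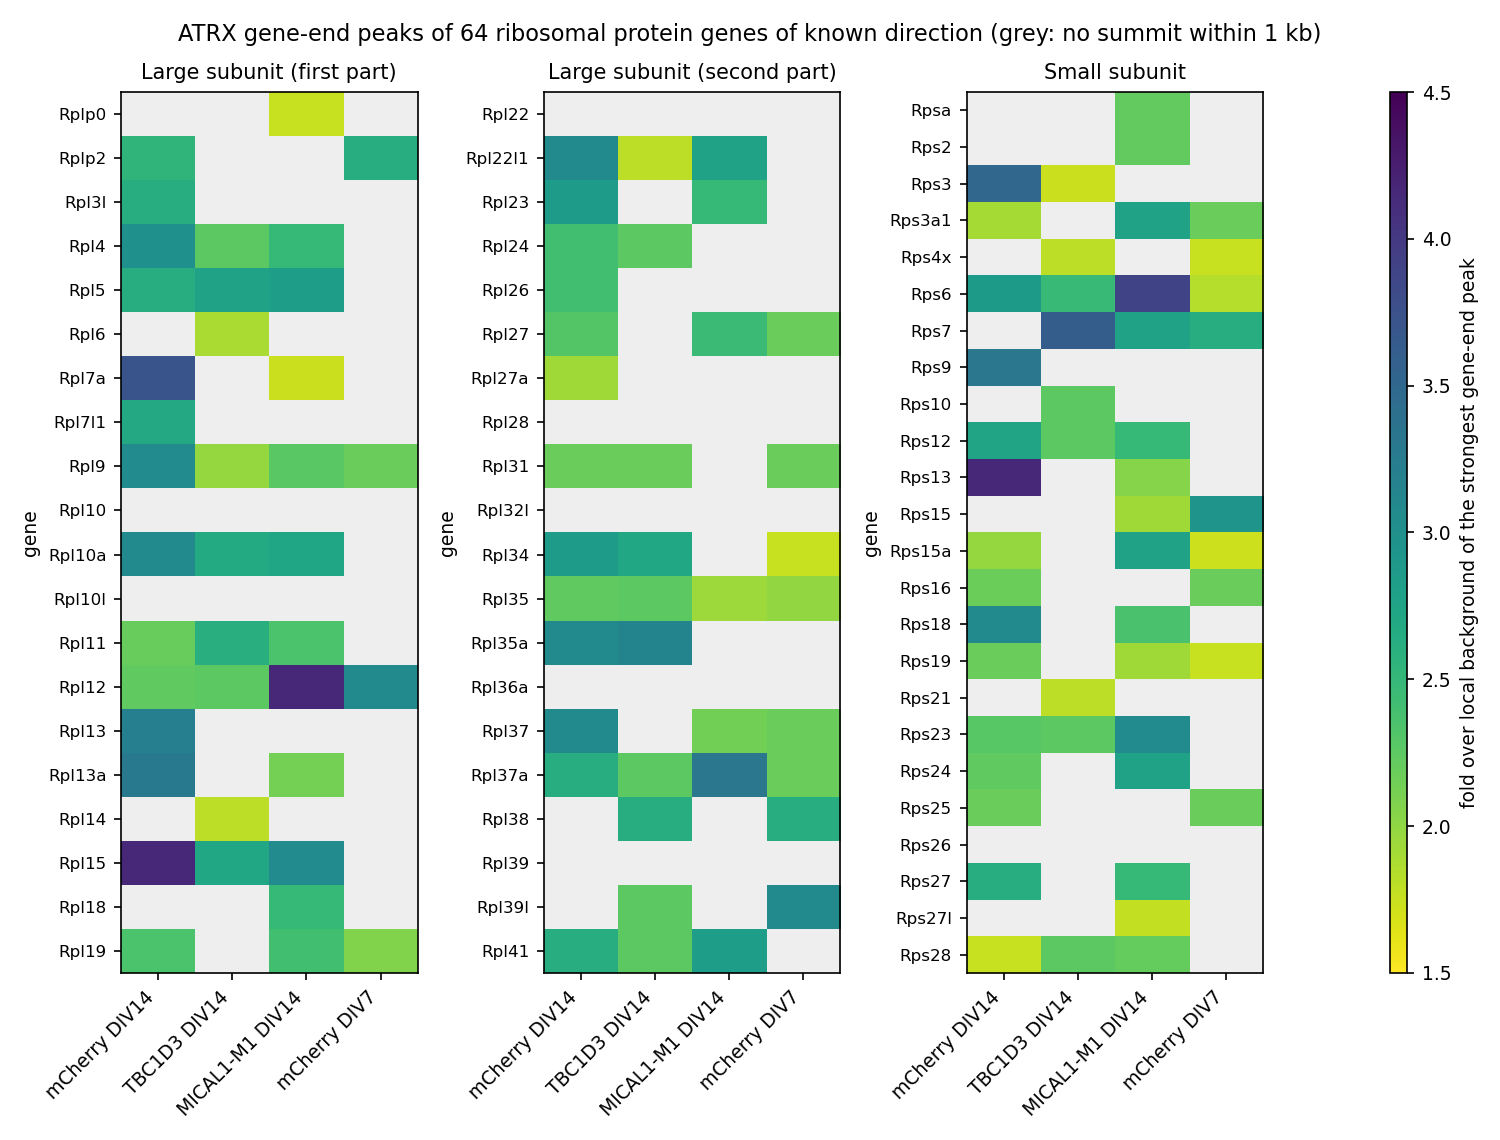
Fold of the strongest gene-end peak (colour, over local background) of each of the 64 members of known direction (rows) in the 4 libraries (columns); grey marks no summit within 1 kb. The darkest cells of the mCherry DIV14 column are Rpl15 and Rps13 at 4.16-fold, and the DIV7 column holds the most grey cells. Colours compare members within a column only, because folds of shallow and deep lists are not comparable.

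A group of 7 members had a summit in all 4 libraries (8.33%; all genes 6.24%), among them Rpl7, Rpl9, Rpl12, Rpl35, Rpl37a and Rps6. Rps6, the S6 protein that mTOR signalling through S6 kinase phosphorylates, had 15 fragments over 4.57 in the control, 6 over 1.83 in TBC1D3, 13 over 2.61 in MICAL1-M1 and 5 over 2.27 at DIV7. Its folds were 2.87, 2.47, 3.88 and 1.83, with q of 0.033 in MICAL1-M1, and its 4 summits lay 180, 337, 172 and 315 bp downstream of the start. Rpl12, at the base of the stalk, had 11 fragments over 4.39, 4 over 1.22, 14 over 2.61 and 6 over 1.28, which are folds of 2.23, 2.26, 4.15 and 3.07. The MICAL1-M1 peak of Rpl12 covers chr2:32961686-32963485, is 1800 bp long and has a q of 0.0079. The summits of Rpl12 lay 260, 98 and 172 bp downstream of the start at DIV14 in the same order, and 479 bp upstream at DIV7.

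Values of Rpl7, Rpl9, Rpl35 and Rpl37a ranged from 1.92-fold to 3.31-fold. Rpl37a had folds of 2.63, 2.26, 3.31 and 2.19 in the order control, TBC1D3, MICAL1-M1 and DIV7, and Rpl35 had 2.23, 2.26, 1.94 and 1.99. Rpl9 had 3.05, 1.98, 2.27 and 2.19, and Rpl7 had 2.41, 2.71, 2.27 and 1.92. Summits of 1 member could lie at different ends: that of Rpl35 was 90 bp from the start in the control and 514 bp from the other end at DIV7.

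Another 10 members had no summit in any library (11.9%; all genes 27.0%), among them Rpl8, Rpl10, Rpl10l, Rpl22, Rpl28, Rpl32l, Rpl36a, Rpl39 and Rps26. Of these, the 3 genes Rpl10, Rpl36a and Rpl39 are on the X chromosome. The fourth X-linked member, Rps4x, had a summit in TBC1D3 (3 fragments, 1.80-fold) and at DIV7 (3 fragments, 1.75-fold). Over all 966 protein-coding genes of the X chromosome the occupied shares were 10.6%, 14.2%, 12.9% and 17.7%, below those over all genes in each library. No member was occupied at DIV7 alone, against 8.28% of all genes.

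A further 7 members had no control summit and one in at least 2 other libraries (8.33%; all genes 10.2%). Rps7 had a summit in each of the 3: 7 fragments over 1.22 in TBC1D3 (3.61-fold, the highest fold of any member in that library, q 0.46), 9 over 2.61 in MICAL1-M1 (2.77-fold) and 5 over 1.28 at DIV7 (2.63-fold). Its summits lay 448, 281 and 425 bp downstream of the start. Rpl38 had 2.63-fold in both TBC1D3 and DIV7, Rpl39l 2.26-fold and 3.07-fold there, Rps15 1.93-fold in MICAL1-M1 and 2.95-fold at DIV7, Rps29 2.50-fold and 2.63-fold there, and Rplp1 2.26-fold in TBC1D3 and 2.77-fold in MICAL1-M1. Rpl38 had a control summit 1014 bp from a gene end (3.30-fold), just outside the window.

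By subunit, the large subunit was occupied in 37 of 52 members in the control (71.2%) and 23, 26 and 15 in TBC1D3, MICAL1-M1 and DIV7. Counts for the small subunit were 19 of 32 in the control (59.4%), then 12 (37.5%), 21 (65.6%) and 11 (34.4%). All genes gave 42.3%, 33.4%, 38.7% and 33.2%. The large subunit had the higher share in the control and TBC1D3, the small subunit in MICAL1-M1 and at DIV7. The intervals of the subunits overlapped in each library. The P stalk, which recruits elongation factors to the ribosome, is made of Rplp0, Rplp1 and Rplp2: Rplp0 had a summit in MICAL1-M1 only (1.75-fold, 9 fragments over 4.72), Rplp1 in TBC1D3 and MICAL1-M1, and Rplp2 in the control (2.54-fold, 15 over 5.30) and at DIV7 (2.63-fold, 5 over 1.28). Among the 7 duplicate copies, the control occupied 3 (Rpl3l, Rpl7l1 and Rpl22l1), TBC1D3 2 (Rpl22l1 and Rpl39l), MICAL1-M1 2 (Rpl22l1 and Rps27l) and DIV7 1 (Rpl39l).

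Of the 56 members occupied in the control, 26 (46.4%) were also occupied in TBC1D3 (42.3% of all genes with a control summit), 36 (64.3%) in MICAL1-M1 (64.1%) and 20 (35.7%) at DIV7 (41.5%). Of the 28 members without a control summit, 9 (32.1%) had one in TBC1D3 (26.9%), 11 (39.3%) in MICAL1-M1 (20.1%) and 6 (21.4%) at DIV7 (27.1%). These comparisons share the control library. The members' kept shares were close to the background in TBC1D3 and MICAL1-M1, and a count of 11 of 28 stands beside a background of 20.1% in MICAL1-M1.

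Where 2 libraries both occupied a member, the peaks did not always coincide. Control and MICAL1-M1 peaks overlapped by at least 1 bp in 28 of 36 members (77.8%; all genes 82.2%), control and TBC1D3 peaks in 15 of 26 (57.7%; 59.4%), and control and DIV7 peaks in 7 of 20 (35.0%; 58.6%). Peaks of TBC1D3 and MICAL1-M1 overlapped in 15 of 21 (71.4%; 60.4%), TBC1D3 and DIV7 in 3 of 14 (21.4%; 44.1%), and MICAL1-M1 and DIV7 in 8 of 17 (47.1%; 54.6%). Median distances between the summits of control and DIV7 were 698 bp in the members and 475 bp in all genes.

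The direction of transcription was known for 64 members, and the start was taken as the upstream border of the gene. A promoter entry begins at this border for 54 of these members and for 10583 of the 17492 genes of known direction. Summits within 500 bp of the start numbered 50 per 100 members in the control (all genes 30.9), 23.4 in TBC1D3 (15.3), 37.5 in MICAL1-M1 (24.8) and 14.1 at DIV7 (15.4). Further away, at 5 to 10 kb, there were 4.06, 8.28, 5.47 and 5.16 summits per 100 members per kb, against 2.84, 6.46, 3.91 and 6.79 for all genes. The first 500 bp downstream held 17 control summits and the last 500 bp upstream 15, where TBC1D3 had 13 and 2, MICAL1-M1 17 and 7, and DIV7 7 and 2. Over all 17492 genes with a known direction the downstream side was also the larger in each library, with 3310 and 2090 summits in the control and 1776 and 920 at DIV7.

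**Figure D3:**
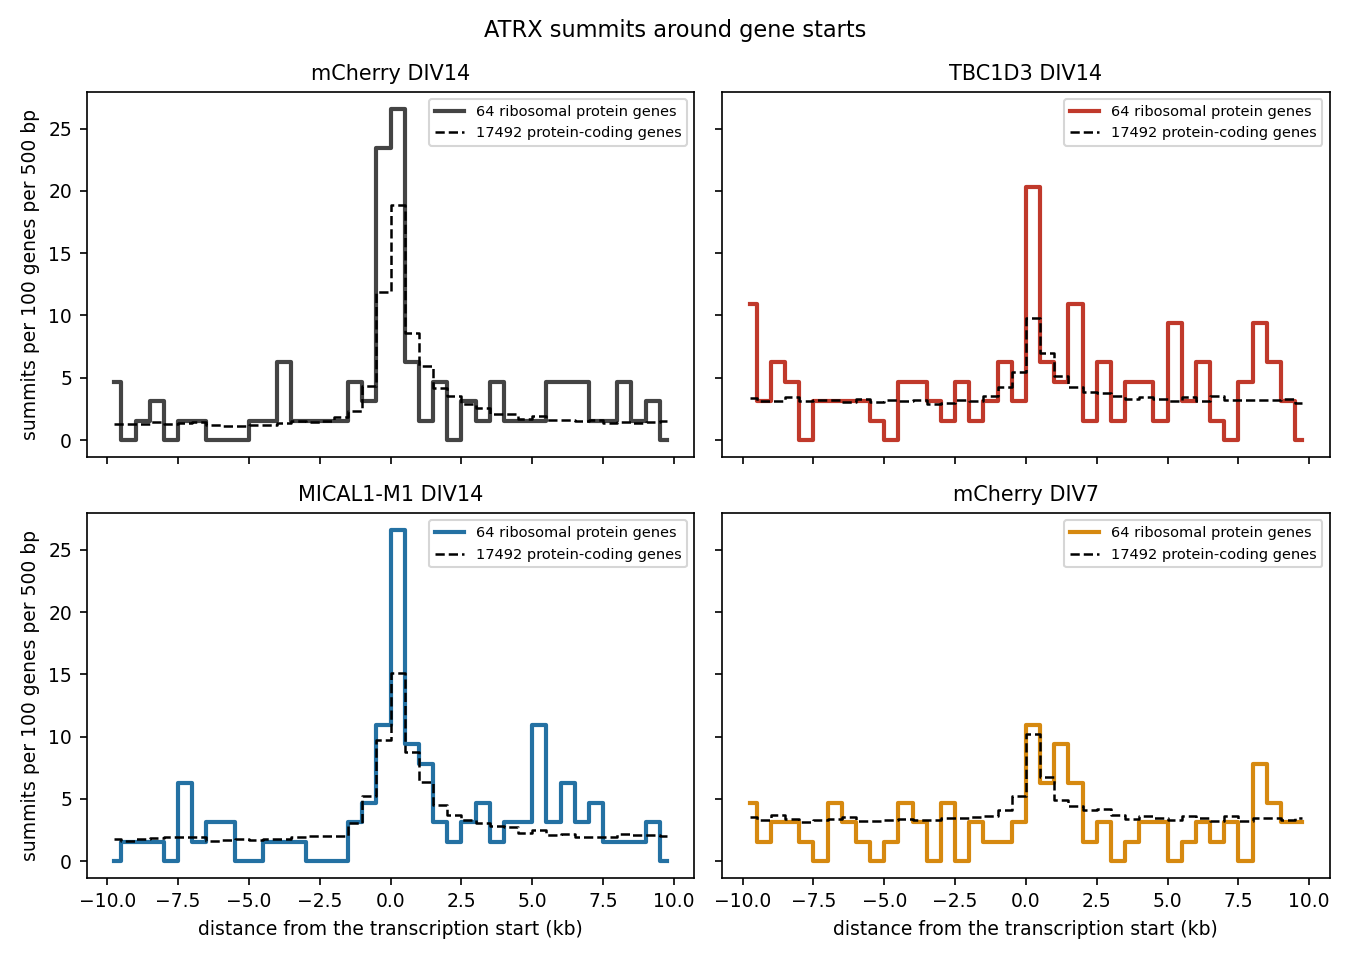
Summits per 100 genes per 500 bp (vertical axis) by distance from the transcription start (horizontal axis, kb, positive downstream) for 64 members (solid) and 17492 protein-coding genes (dashed), 1 panel per library. The start is the upstream border of the gene. The tallest bin of the members, the first 500 bp downstream, holds 26.6 summits per 100 members in both the control and MICAL1-M1, 20.3 in TBC1D3 and 10.9 at DIV7, and the bin just upstream holds 23.4, 10.9, 3.12 and 3.12 in that order.

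The strongest peak lay near the start in 35 of 42 occupied members of known direction in the control and at the other end alone in 7 (16.7%; all genes 8.15%). In TBC1D3 these counts were 19 and 9 of 28 (32.1%; 31.1%), in MICAL1-M1 30 and 5 of 35 (14.3%; 12.9%), and at DIV7 14 and 7 of 21 (33.3%; 29.7%). The peak itself covered the start in 19 of 42 (45.2%; all genes 52.8%), 4 of 28 (14.3%; 14.5%), 14 of 35 (40.0%; 37.0%) and 1 of 21 (4.76%; 14.1%). That DIV7 peak belongs to Rpl12.

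A member's strongest control peak held 8 to 19 fragments (median 12.5). The range was 3 to 7 in TBC1D3 (median 4), 6 to 15 for MICAL1-M1 (median 9) and 3 to 6 at DIV7 (median 4). The deposited folds of these peaks had medians of 2.63, 2.26, 2.49 and 2.19, and the medians over all occupied genes were 2.55, 2.26, 2.48 and 2.19. Because the fragments are whole numbers, many members share the same value: 17 had 4 fragments in TBC1D3 and 11 at DIV7. In TBC1D3 the smallest step, 1 fragment, separates folds of 1.80 and 2.26. A local background more than 2% above the library's usual value was used for 29 of 56 members in the control (51.8%; all genes 58.1%), 11 of 35 in TBC1D3 (31.4%; 33.1%), 19 of 47 in MICAL1-M1 (40.4%; 42.7%) and 6 of 26 at DIV7 (23.1%; 35.3%).

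**Figure D4:**
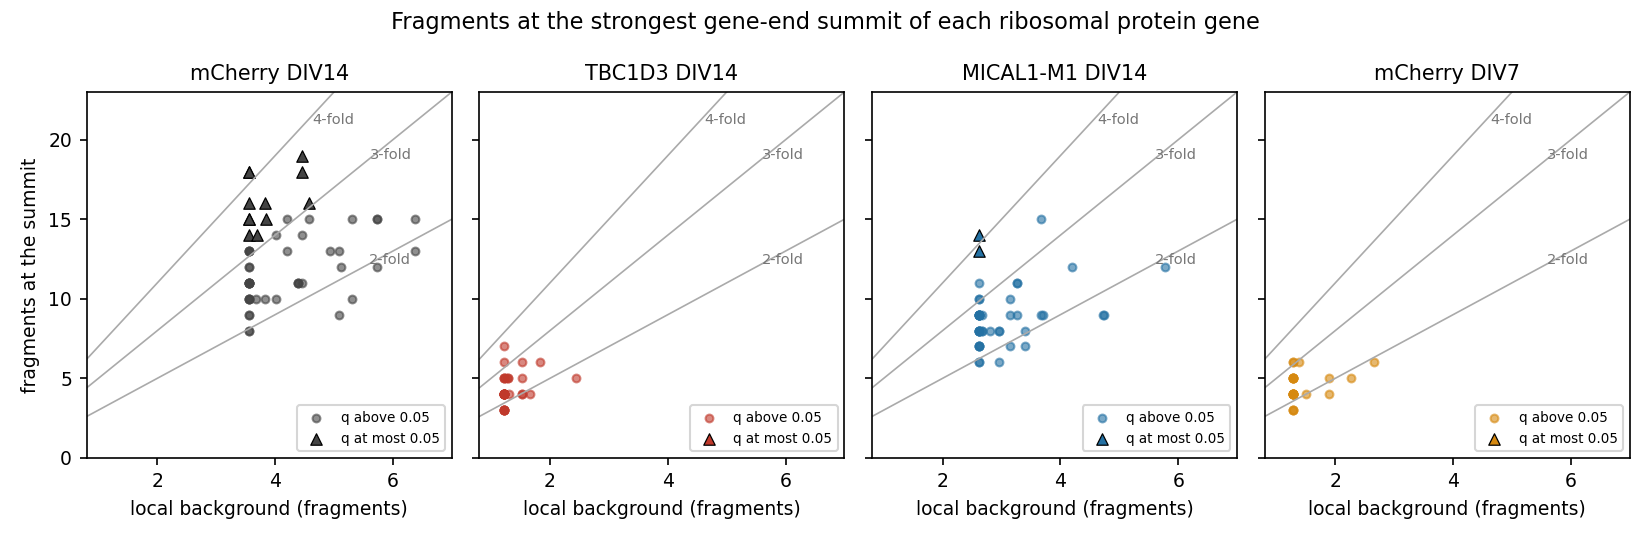
Fragments at the strongest gene-end summit of each occupied member (vertical axis) against its local background (horizontal axis, fragments), 1 panel per library; triangles are peaks with a q of at most 0.05 and grey lines mark equal folds. Control points span 8 to 19 fragments with 12 triangles, MICAL1-M1 has 2 triangles, and TBC1D3 and DIV7 have none.

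In all, 30 members hold at least 1 snoRNA within their borders in the RefSeq table, at most 5 (Rpl4). Hosts were occupied in 25 of 30 cases in the control (83.3%, interval 65.3 to 94.4), and members without a snoRNA in 31 of 54 (57.4%, 43.2 to 70.8). In TBC1D3 10 hosts (33.3%) and 25 of the others (46.3%) were occupied. MICAL1-M1 had 17 (56.7%) and 30 (55.6%), and DIV7 had 8 (26.7%) and 18 (33.3%). The hosts' share was the higher in the control, where the intervals overlapped, and close to that of the others in MICAL1-M1. It was the lower in TBC1D3 and at DIV7. This split was chosen after the data were seen. The occupied share of snoRNA hosts among all protein-coding genes was not computed, so no background stands beside these shares. In the control, 8 of the 12 members with a q of at most 0.05 were hosts, among them Rpl7a, Rpl13, Rpl13a, Rpl21, Rpl23a, Rps3 and Rps13. The hosts were not matched to the other members on length or on neighbours. By length, the 37 members under 3 kb were occupied in 64.9%, 32.4%, 48.6% and 21.6% of cases in the order control, TBC1D3, MICAL1-M1 and DIV7, and the 47 longer ones in 68.1%, 48.9%, 61.7% and 38.3%. All 3399 genes under 3 kb gave 16.7%, 21.8%, 16.8% and 22.8%, and the 5509 genes of 3 to 12 kb gave 37.5%, 31.7%, 34.0% and 32.2%.

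Many members have close neighbours, so that a peak can lie at the ends of more than 1 gene. The windows of 42 of the 84 members, and of 14839 of all 21887 genes, touched no other gene's. A summit shared with another gene's end was found in 27 members in any library, of which the control had 19, TBC1D3 10, MICAL1-M1 14 and DIV7 8. The share of all genes with a shared summit was not computed, so these counts do not show whether sharing is particular to the members. Rpl12 shared each of its 4 summits with Lrsam1, a ubiquitin ligase gene, and Rpl15 shared its 3 with Nkiras1, an inhibitor of NF-kappaB signalling. Other shared summits were those of Rpl7a with Med22, a Mediator subunit, Rpl9 with Lias, a lipoic acid synthase, Rps27a with Clhc1 and Rps18 with B3galt4 or Vps52. For such peaks the gene that the ATRX signal belongs to cannot be told apart. Among the 42 members whose windows touch no other gene's, the control occupied 24 (57.1%), TBC1D3 20 (47.6%), MICAL1-M1 21 (50%) and DIV7 16 (38.1%). Over all 14839 genes without such a neighbour the shares were 36.9%, 32.7%, 34.9% and 34.0%. At DIV7 these members lay slightly above their background and the whole set slightly below its own. Both were close to it, and no interval was computed for the 42.

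The other genes of protein synthesis and energy supply are set beside the members without a test of the differences. In the order control, TBC1D3, MICAL1-M1 and DIV7, the members' shares were 66.7%, 41.7%, 56.0% and 31.0%, and those of all genes 42.3%, 33.4%, 38.7% and 33.2%. Mitochondrial ribosomal proteins, which build the separate ribosome of mitochondria, were occupied in 48, 25, 42 and 22 of 78 cases (61.5%, 32.1%, 53.8% and 28.2%). Genes with Eif and Eef symbols, mostly initiation and elongation factors, had 48, 24, 39 and 22 of 71 (67.6%, 33.8%, 54.9% and 31.0%). Oxidative phosphorylation subunits, the proteins of the respiratory chain and ATP synthase, had 57, 30, 51 and 29 of 84 (67.9%, 35.7%, 60.7% and 34.5%). Proteasome subunits had 23, 8, 21 and 9 of 39 (59.0%, 20.5%, 53.8% and 23.1%). Nucleolar and ribosome assembly genes had 22, 9, 16 and 7 of 40 (55.0%, 22.5%, 40.0% and 17.5%). Aminoacyl-tRNA synthetases, which charge tRNAs, had 17, 15, 20 and 10 of 34 (50%, 44.1%, 58.8% and 29.4%), with the highest share in MICAL1-M1 and not in the control. With a q of at most 0.05 in the control there were 12 mitochondrial ribosomal protein genes (15.4%), 11 of the 71 Eif and Eef genes, 9 oxidative phosphorylation genes (10.7%), 3 proteasome genes (7.69%), 2 synthetases (5.88%) and 1 assembly gene (2.5%), beside 14.3% of the members and 8.47% of all genes.

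Near the 1 kb limit, the control had Rpl17 at 902 bp (1.97-fold) and Rpl19 at 960 bp (2.35-fold) just inside, and Rpl38 at 1014 bp just outside. In TBC1D3, Rpl22l1 at 997 bp lay just inside and Rpsa at 1001 bp just outside. In MICAL1-M1, Rpl4 at 968 bp lay inside and Rps10 at 1032 bp outside, and at DIV7 Rps15 at 931 bp lay inside and Rpl11 at 1024 bp outside.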

How the data were processed

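Peak lists from ATRX ChIP-seq of 4 libraries of primary mouse neurons were used, 1 per group; the input DNA sample was not analysed here. Enzymatically cut chromatin was sequenced from both ends with input DNA as background, per the labels' protocols. The submitters' processing notes name MACS 1.4.2, Bowtie 1.3.0, ChIPseeker 1.26.2 and SAMtools 1.9 without a role, setting or build, and MACS 1.4.2 does not write this layout with q, so the caller is uncertain. The deposited columns follow the narrowPeak layout: a score, a fold (a ratio to the local background), the -log10 of p and of q, and the summit offset in bp, all the authors' own values. Folds describe peaks within a list and show no change between lists.

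Gene positions are those of RefSeq on GRCm38.p6; the lists' scaffold names are those of GRCm38. Direction came from RefSeq promoters, which 64 of 84 members have, and distances from the start were measured from the upstream border of the gene. Whole fragment counts k and the background b were recovered by taking the fold as (k + 1)/(b + 1) and p as a Poisson tail; all 189 member peaks fitted within 0.001 in log10 p. Counts of genes carry exact binomial intervals at 95%. The scripts were tested on simulated data (Python 3.11.15, pandas 2.3.3, scipy 1.17.1). Read totals were not analysed here, so depth is known only through these fragments.

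The members and lists were chosen with earlier results of these data known. Named members have a summit in all 4 libraries or in none, a q of at most 0.05, 1 of the 10 highest control folds, no control summit but 2 others, or a shared peak, or are P stalk proteins or copies; Rpl4, Rpl11, Rpl17, Rpl19, Rps10 and Rpsa, among others near a threshold, were named after their values were seen. The snoRNA and length splits and the genes under 12 kb were also chosen after the data were seen. Some members are counted but not reported by name here.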

Additional observations from a re-analysis of the deposited data

How the results depend on the processing

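No paired analysis was possible because each group has 1 library and the labels give no replicate numbers, and for the same reason no library could be left out of a group. In the order control, TBC1D3, MICAL1-M1 and DIV7, peaks with a q of at most 0.05 left 12, 0, 2 and 0 members. These were 14.3%, 0%, 2.38% and 0%, against 8.47%, 0.146%, 1.33% and 0.228% of all genes. A p of at most 0.001 left 36, 2, 19 and 3 (42.9%, 2.38%, 22.6% and 3.57%, against 26.0%, 5.22%, 15.8% and 5.85%). Median folds at that p were 2.93, 3.38, 2.77 and 3.07, since such peaks are the stronger ones by construction. Equal list sizes gave 20 members in TBC1D3 (19.2%) and 13 at DIV7 (17.6%). A window of 0.5 kb gave 22 in TBC1D3 (26.2%, all genes 20.4%) and 14 at DIV7 (16.7%, all genes 20.6%). One of 3 kb gave 44 at DIV7 (52.4%, all genes 59.3%) and 47 in TBC1D3 (56.0%, all genes 57.7%). Using the transcription start alone left 36, 21, 30 and 14 of 64 members, and members without a neighbouring window 24, 20, 21 and 16 of 42 (57.1%, 47.6%, 50% and 38.1%, where all such genes gave 36.9%, 32.7%, 34.9% and 34.0%); both lists are shorter by construction. The share of the members lay above that of all genes in the control and MICAL1-M1 under both window sizes and at equal list size. At DIV7 it lay below the background under the 0.5 kb, 3 kb and equal-size settings and slightly above it without neighbouring windows. No intervals were computed for these settings. In TBC1D3 it lay below the background at 3 kb and above it at 0.5 kb and equal size. Among the genes under 12 kb, an alternative chosen after the data were seen, the background was 29.2%, 27.8%, 27.2% and 28.6%. The members' median summit held 4 fragments in TBC1D3 and at DIV7, and detection at that depth was not tested.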

Other observations

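Processed and other pseudogenes of ribosomal proteins number 318 in the RefSeq table by their -ps symbols. Over the libraries they showed the order of all pseudogenes, which is another order than that of the ribosomal protein genes. They were occupied in 20 control cases (6.29%, interval 3.88 to 9.55), 52 in TBC1D3 (16.4%), 26 in MICAL1-M1 (8.18%) and 70 at DIV7 (22%). Over all 10429 pseudogenes the shares were 5.10%, 20.3%, 8.93% and 24.0%, with the libraries in the same order. In both sets the shares rose with the number of peaks in the list, whose part was not tested. The authors' handling of reads shared by near-identical copies is not stated in the labels, and its part in these counts was not tested.

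The names of the peaks in the MICAL1-M1 list carry the tag M2, where the label gives M1. The list was used under its label.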
